A study of Mus musculus with 4 samples.

Results

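Position-named array features, which the mouse gene expression array carries for candidate long intergenic noncoding RNAs (lincRNAs), were compared between ID8G and GO2 ovarian cancer cells. The members were all features that are not controls and whose name is a genomic interval on mouse build mm9 followed by F or R, and the suffix was taken here to name the strand. There were 4449 such features among 56605, of which 2227 carried F and 2222 carried R. They stood for 4061 stranded regions in 3229 intervals of 62 to 538251 bases (median length 10601), on chromosomes 1 to 19 and X. Both strands were present for 832 intervals and 1 strand for the other 2397. Intervals that share bases were merged into 2149 loci, 660 of which held more than 1 interval, so features of 1 locus are not independent of each other. Whether an interval lies between genes, in an intron or in an exon was not analysed here, because no mm9 genome or annotation was used, and for the same reason no sequence is printed.

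LincRNAs are transcripts without a long open reading frame, made by RNA polymerase II from stretches between protein-coding genes. Many are spliced, retained in the nucleus and present at low levels, and their levels often differ more between cell types than those of messenger RNAs. Known examples act as scaffolds or guides for chromatin-modifying complexes, as host transcripts of small RNAs, or through the act of transcription next to a gene. Where such a gene is known only as a transcribed interval its strand may be unknown, and an array can then carry a probe for each strand.

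ID8G cells are ID8 mouse ovarian cancer cells, a line derived from mouse ovarian surface epithelium, that carry green fluorescent protein (GFP). GO2 cells were the GFP-positive cells sorted from omental tumors after 2 rounds of intraperitoneal growth of ID8G cells in mice, and both lines were cultured in the same medium before total RNA was taken. GO2 is 1 selected line, so selection in the omentum and passage of a single population cannot be told apart. Each line was measured on 2 arrays of 1 slide, with the arrays of a line side by side, so position on the slide and cell line cannot be told apart either. Nothing in the labels says that the 2 arrays came from separate cultures, so p-values measure the spread between these samples, which may be technical.

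All levels are scaled log2 signals, that is log2 of the processed intensity minus the 75th percentile of that array, so 0 is the 75th percentile and a difference of 1 is 2-fold. The 75th percentile was 675 and 668 intensity units for ID8G and 635 and 627 for GO2, and 0 spots were saturated. Of 308 negative-control spots, 2 to 7 per array were marked well above background. Among the lincRNA regions tested, levels correlated with Pearson r = 0.992 between the ID8G arrays and 0.993 between the GO2 arrays, against 0.960 to 0.962 between arrays of different lines.

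The detected share of lincRNA regions was below that of the other features on each of the 4 arrays. Well above background were 1706 (38.3%) and 1846 (41.5%) of the 4449 features for ID8G and 1740 (39.1%) and 1826 (41.0%) for GO2. The other 52156 features stood at 49.5% and 51.7% for ID8G and at 51.0% and 51.8% for GO2. For lincRNA regions the ranges of the lines overlapped, and the gap to the other features was larger than the range over arrays. On all 4 arrays 1528 lincRNA features (34.3%) were well above background, and 2324 (52.2%) were on none, against 47.0% and 43.5% of the other features. For 62 of the 4449 lincRNA features the signal was well above background on both ID8G arrays and no GO2 array, and for 61 on both GO2 arrays and no ID8G array. The other 52156 features were not counted in this way, so whether these counts are particular to lincRNA regions was not tested.

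**Figure D1:**
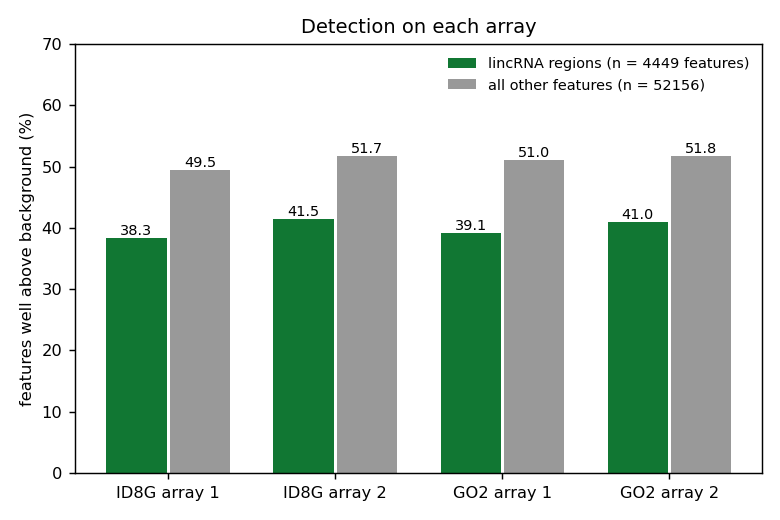
Share of features well above background (percent, y axis) on each of the 4 arrays (x axis), for the 4449 lincRNA features and the 52156 other features. The lincRNA bars lie between 38.3% and 41.5%, below the bars of the other features (49.5% to 51.8%) on each array.

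The detected share was larger in each longer quartile of interval length. In the shortest quartile of features, with intervals of 62 to 1738 bases, 26.2% were well above background on all 4 arrays. The share was 34.6% in the next quartile, 36.8% in the one after it and 39.7% in the longest, with intervals of 25777 bases or more. No test was made across features, since features of 1 locus share bases.

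The test covered features marked well above background on the array pair of 1 line or more, which left 1762 of the 4449 lincRNA features (39.6%), against 51.0% of the other features. Called means a Benjamini-Hochberg adjusted p below 0.05 from limma, fitted over all 28368 features tested, and a difference of at least 2-fold. Of the 1762 lincRNA features, 57 (3.23%) were higher and 51 (2.89%) were lower in GO2 cells. Over all features tested the shares were 4.50% higher and 3.34% lower. The difference between these shares was not tested, and for the lower calls its direction depended on the arrays used, as given below. The called features lay in 46 loci with higher and 42 loci with lower signal, and no locus had calls both ways. The lines did not overlap in any of the 108 called features, which the call itself favors, nor in 63.1% of all lincRNA features tested against 73.6% of all features tested.

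A feature that is dim in 1 line passes the detection filter only through the other line, which favors a difference without forcing a call. This applied to 33 of the higher features, which 1 or both ID8G arrays did not detect, and to 30 of the lower ones, which 1 or both GO2 arrays did not detect. Among the 1528 features detected on all 4 arrays, 24 (1.57%) were higher and 21 (1.37%) were lower, against 2.55% and 2.32% of the 26020 array features detected on all 4 arrays. Leaving out 1 array at a time moved the counts. The lower calls were 104 without ID8G replicate 1 (5.43% of lincRNA features tested, against 4.74% of all features) and 84 without ID8G replicate 2 (4.62% against 4.36%), so these shares were above those of the array. The higher calls were 92 without GO2 replicate 1 (4.84% against 5.52%) and 94 without GO2 replicate 2 (5.10% against 5.51%). With normexp background correction 22 were called higher and 14 lower.

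Most lincRNA regions differed little between the lines. In RNA from whole cultures, a transcript present in fewer cells and less of it per cell cannot be told apart. The median difference of GO2 minus ID8G over the 1762 features was -0.03 on the log2 scale, with quartiles of -0.23 and 0.15, and the median over all features tested was -0.02. The 4 pairs of a GO2 and an ID8G array gave medians between -0.05 and -0.02. For features detected on all 4 arrays the median absolute difference between the means of the lines was 0.16. The median absolute difference between single arrays of 1 line was 0.10 for ID8G and 0.10 for GO2, which is an unlike measure, since single arrays vary more than means. For the other features these values were 0.19, 0.07 and 0.07, so the arrays of a line differed more for lincRNA regions.

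The largest increase among regions detected on all 4 arrays was on chromosome 8. The R feature of chr8:67552315-67561235 stood at -3.14 and -3.27 in ID8G cells and at 1.39 and 1.24 on the GO2 arrays. The difference was 4.52 (standard error, SE, from limma 0.08, adjusted p = 0.000189), or 22.9-fold. An overlapping interval on the same strand, chr8:67550064-67560987, rose from -5.70 and -6.01 to -1.83 and -1.72 (difference 4.08, SE 0.12, adjusted p = 0.000318). That feature was not well above background on either ID8G array, so its increase is a bound of at least 3.74-fold. The 2 features sample 1 locus with different probes. That of chr8:67550064-67560987 passed the detection filter only through the GO2 arrays, which favors its difference, so only the first gives a measured fold.

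A second locus with high GO2 signal on more than 1 feature was on chromosome 1, again on the R strand. Interval chr1:175654606-175672031 carried 3 R features. The first stood at -1.46 and -1.52 in ID8G cells and at 0.99 and 0.93 in GO2 cells, a difference of 2.45 (SE 0.06). The other two differed by 2.29 (SE 0.07) and 2.02 (SE 0.08), and adjusted p ranged from 0.00023 to 0.000506 over the 3. Further along the chromosome, the only tested R feature of chr1:175705225-175717250 rose from 0.55 and 0.45 to 2.67 and 2.55 (difference 2.11, SE 0.07, adjusted p = 0.00041 in limma).

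Single features showed the other large increases. On the X chromosome, 1 of the 2 R features of chrX:50400250-50410825 passed the detection filter. It rose from 1.13 and 1.16 to 3.53 and 3.24 (difference 2.24, SE 0.11). Interval chr14:26973425-26986650 rose on the F strand from 0.90 and 1.06 to 3.07 and 2.95 (difference 2.03, SE 0.09). Of the 2 R features of chr10:94900849-94928059, 1 passed the detection filter. It rose from -0.17 and -0.23 to 1.70 and 1.77 (difference 1.94, SE 0.06). In all 3 the lowest GO2 array was above the highest ID8G array by far more than the arrays of a line differed. The F features of chr2:50152329-50289487 and chr5:92556322-92558910 rose by less, with differences of 1.72 and 1.67. Over these 10 features the limma adjusted p was 0.00121 at most.

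The decreases detected on all 4 arrays were smaller than the largest increases. Of the 2 F features of chr9:78107225-78118850, 1 passed the detection filter. It was bright in ID8G cells, at 1.60 and 1.59, and stood at -0.53 and -0.77 in GO2 cells. The difference was -2.25 (SE 0.10, limma adjusted p = 0.000608), or 4.74-fold. The overlapping F feature of chr9:78104935-78116974 fell from 1.18 and 1.12 to -0.64 and -0.88 (difference -1.91, SE 0.10). Both intervals belong to 1 locus, and the arrays of the lines did not overlap in either.

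On chromosome 1, the F feature of chr1:139822286-139822985 fell from -0.88 and -1.08 to -3.26 and -3.04 (difference -2.17, SE 0.11). Interval chr1:161992257-161992963 fell on the F strand from -1.51 and -1.45 to -3.45 and -3.65 (difference -2.07, SE 0.09). It lies inside chr1:161969026-162001640, whose only tested F feature was also called lower, at -2.34 and -2.66 in ID8G cells and not well above background in GO2 cells (at least 2.48-fold). On chromosome 8, the R feature of chr8:124355710-124401160 fell from -0.87 and -0.90 to -2.66 and -2.54 (difference -1.72, SE 0.06). A short interval inside it, chr8:124397412-124398022, fell on the R strand by at least 3.13-fold, with 1 GO2 array well above background.

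On chromosome 2, short intervals of 459 and 591 bases were lower in GO2 cells. The F feature of chr2:67836003-67836461 fell from -1.52 and -1.50 to -3.11 and -3.43, and the F feature of chr2:67411703-67412293 fell from -0.31 and -0.18 to -1.70 and -1.68. Interval chr19:46419916-46421753 fell on the F strand from -1.86 and -1.94 to -3.58 and -3.26 (difference -1.52, SE 0.13). The differences of the 10 largest decreases ran from -1.45 to -2.25, with limma adjusted p of 0.00288 or less.

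**Figure D2:**
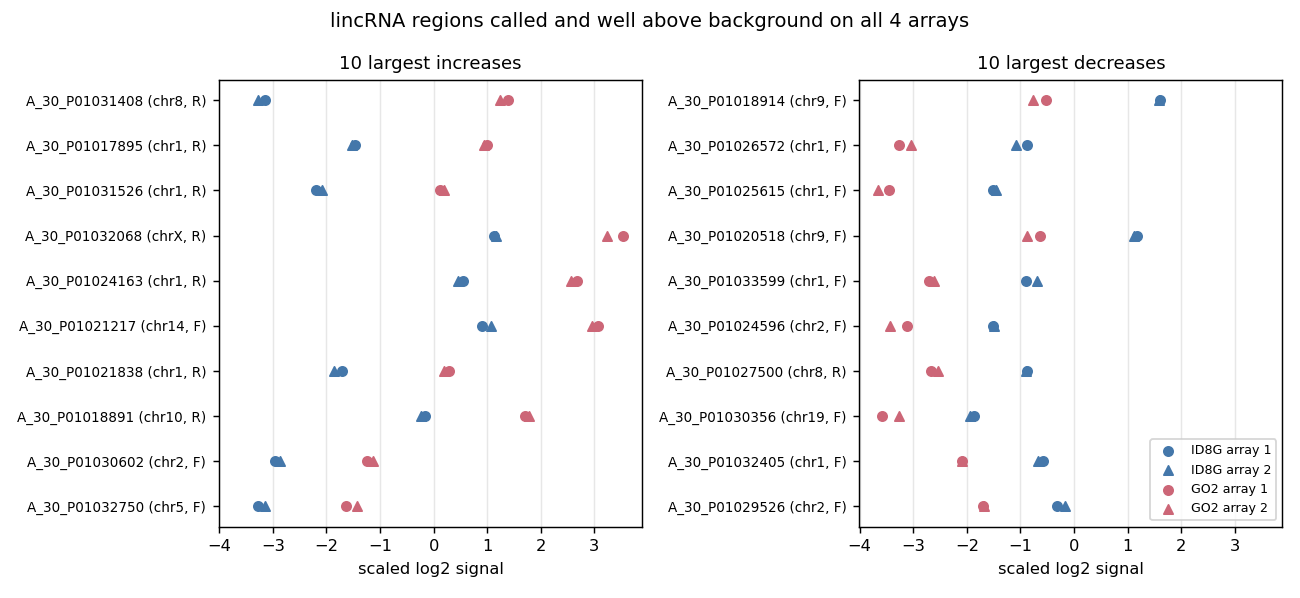
Scaled log2 signal (x axis) of the 10 largest increases (left) and 10 largest decreases (right) among lincRNA features called and detected on all 4 arrays, with 1 point per array (circles array 1, triangles array 2) and features in order of the size of the difference. In each row the 2 GO2 points lie apart from the 2 ID8G points, with differences from 1.67 to 4.52 on the left and from -1.45 to -2.25 on the right.

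For 63 called features the dimmer line gave only a bound, and the bounds ran from 1.04-fold to 9.39-fold, with 27 of at least 2-fold. The largest bound upward was for the F feature of chr5:26333765-26338143. It stood at -5.19 and -5.77 on the ID8G arrays, neither well above background, and at -0.52 and -0.53 on the GO2 arrays, at least 8.89-fold higher (measured difference 4.96, SE 0.21, limma adjusted p = 0.000583). Likewise the F feature of chr8:86705694-86711244 was not well above background at -4.52 and -4.58 in ID8G cells and stood at -0.98 and -1.02 in GO2 cells, at least 6.40-fold higher. The R feature of chr5:149765314-149771786 was at least 5.37-fold higher, with 1 of 2 ID8G arrays well above background, and the F feature of chr3:145313275-145315057 at least 2.84-fold.

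The largest bound downward was for the F feature of chr12:50490638-50508093, which stood at -0.50 and -0.66 in ID8G cells and was not well above background in GO2 cells, at least 9.39-fold lower (limma adjusted p = 0.00635). Its GO2 arrays read -4.07 and -5.39, and values below the detection limit have no order. In chr8:71495043-71525582, 1 of the 2 R features stood at -1.87 and -1.44 in ID8G cells and was at least 4.46-fold lower in GO2 cells. The other R feature had a measured difference of -2.86 and was not called. Interval chr7:48854599-48868579 was, on the F strand, at least 3.71-fold lower.

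Features of the same region mostly gave similar differences, with exceptions among the called ones. Of 316 stranded regions with more than 1 feature, all features were tested in 81, some in 122 and none in 113. In the 92 regions with at least 2 tested features, the spread of the difference between features had a median of 0.16 and a 90th percentile of 0.65. A call fell in 6 of these regions, and every tested feature was called in 2 of them. These were the R strand of chr1:175654606-175672031, described above, and the F strand of chr1:64696508-64699504, whose 3 features were lower. Of these 3, 2 were detected on all 4 arrays and fell by 1.19 and 1.22. The remaining one was not well above background in GO2 cells and was at least 1.99-fold lower.

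Features disagreed in the region named chr2:167388900-167402475_R. There 2 features rose from below background (at least 2.09-fold and 1.26-fold), while the remaining one was detected on all 4 arrays at -2.79 and -2.99 in ID8G cells and -2.95 and -2.99 in GO2 cells. On the R strand of chr12:103151385-103157735, 1 feature was at least 3.42-fold lower and the other differed by 0.13. A called feature in these intervals therefore does not stand for the interval as a whole.

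A few features gave a direct view of technical spread, because they were printed 10 times on each array. The 5 such features lay in chr17:39983902-39985688, chr17:48068261-48087905, chr2:167085700-167117795 and, for 2 of them, chr6:116123643-116124550. Their mean levels were between 5.83 and 7.64, and the SD between spots of an array was 0.0177 to 0.128. Their differences between the lines ran from -0.33 to -0.04, and none was called.

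Intervals with a feature on each strand allowed detection to be compared between strands. On all 4 arrays, both strands were well above background in 175 of the 832 intervals (21.0%), the F strand alone in 151 (18.1%), the R strand alone in 200 (24.0%) and neither in 306 (36.8%). The strand that was detected alone was the same in both lines in 326 intervals and the opposite one in 2. These 2 were chr13:56286339-56298089 and chr9:118291593-118324230, where no feature was called. Across all features, F and R were alike in detection (33.5% and 35.2% on all 4 arrays) and in the median difference (-0.04 and -0.03). Calls were 26 higher and 32 lower among 857 tested F features, and 31 higher and 19 lower among 905 tested R features. A difference between these splits was not tested.

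No interval had both strands called, in the same or in opposite directions. Of all tested lincRNA features 3.23% were called higher and 2.89% lower, and both strands were tested in only 203 intervals. With calls this rare, few intervals could have both strands called even if strands changed independently, so their absence says little about strands. In 9 intervals 1 strand was called while the other was tested and not called, and in 18 the other strand was not tested. Across the 203 intervals with both strands tested, the difference of the F strand and that of the R strand had a Pearson r of 0.10 and a Spearman rho of 0.10. This is a description across intervals measured on the same 4 arrays, and neighbouring intervals are not independent.

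Whether the change differed between strands was tested directly, as the F level minus the R level on each array, in which the scaling of the array cancels. The median absolute change of this F minus R value between the lines was 0.26. Of the 203 intervals, 9 (4.43%) passed a limma adjusted p below 0.05 with a change of at least 1, of which 2 were positive and 7 were negative. When only features detected on all 4 arrays were used, 4 were called, all of them among the 9. Without ID8G replicate 1 the count was 4 and without ID8G replicate 2 it was 2, and in each case 1 of the 9 was called again. Without GO2 replicate 1 it was 11 and without GO2 replicate 2 it was 16, with 6 of the 9 among them each time. With 1 array left out, the intervals that were no longer called kept the direction of their change. With only features detected on all 4 arrays, the change of chr2:167388900-167402475 reversed, as given below.

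Among intervals measured on all 4 arrays, the strand difference with the smallest adjusted p was in chr6:86477309-86537554. Its R feature rose from -3.31 and -3.35 in ID8G cells to -2.08 and -2.04 in GO2 cells, while its F feature stood at -1.47 and -1.43 and at -1.91 and -1.74. The F minus R value changed by -1.65 (SE 0.13, limma adjusted p = 0.00452). In chrX:50400250-50410825, where the only tested R feature rose by 2.24, the F feature stood at -1.69 and -2.23 in ID8G cells and at -1.85 and -1.57 in GO2 cells. Its F minus R value changed by -1.99 (SE 0.28, adjusted p = 0.0294), with the 2 ID8G arrays of the F feature further apart than its lines.

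In chr5:22801058-22939737 the R feature rose from -3.26 and -3.52 to -2.15 and -2.29. The F feature of that interval stood at 2.73 and 2.84 in ID8G cells and at 2.90 and 2.64 in GO2 cells, so its lines overlapped. The F minus R value changed by -1.18 (SE 0.18, limma adjusted p = 0.0294). In chr6:47595238-47601893 neither strand was called by itself. There the F feature read -0.22 and -0.24 in ID8G cells and -1.05 and -0.82 in GO2 cells, and the R feature -2.84 and -3.17 in ID8G cells and -2.59 and -2.65 in GO2 cells, and the F minus R value changed by -1.09 (SE 0.18, adjusted p = 0.0297).

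The other 5 called intervals rested on a strand that 1 or both arrays of a line did not detect. In these the measured change depends on signals below background and has no rank. In chr1:52507332-52514490 the F feature was at least 2.29-fold lower in GO2 cells and the mean of its R features read 4.36 and 4.42 in ID8G cells and 4.28 and 4.25 in GO2 cells (measured F minus R change -3.40, SE 0.22, limma adjusted p = 0.00298), and with signals raised to the detection limit the change was -1.08 (SE 0.21). The positive measured changes were in chr1:92546371-92551596 (2.02, SE 0.30) and chr1:88339354-88345004 (1.58, SE 0.26). With signals raised in the same way they were -0.13 and 0.19, and neither was called. In chr8:129102060-129109035 the change was -1.14 (SE 0.22) as measured and -1.03 (SE 0.16) with raised signals. In chr2:167388900-167402475 the change was -1.97 (SE 0.17) as measured, -0.46 (SE 0.17) with raised signals, and 0.06 when only features detected on all 4 arrays were used.

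**Figure D3:**
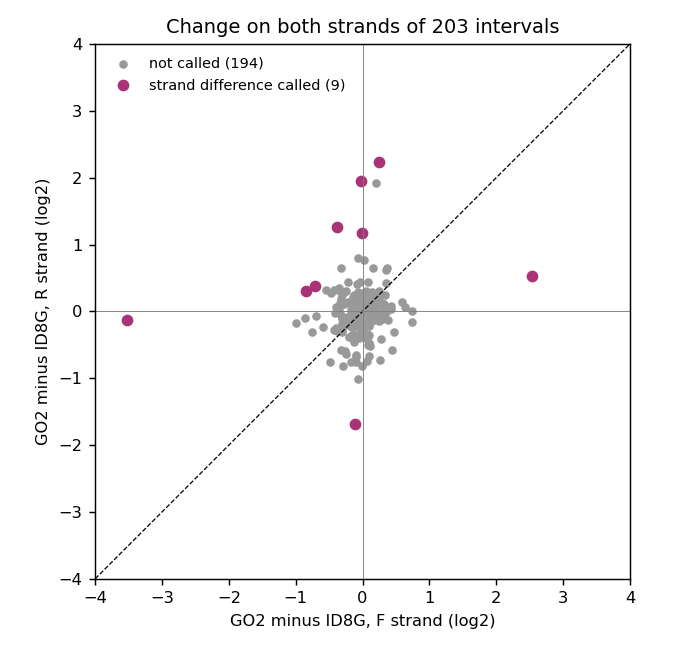
Difference of GO2 minus ID8G (log2) on the R strand (y axis) against the F strand (x axis) for the 203 intervals with both strands tested, 1 point per interval, with features of a strand averaged and the dashed line marking equal change. The 9 intervals whose F minus R change was called lie off the dashed line, and most of them lie close to 0 on 1 of the axes. For 5 of them a strand was below background on 1 or both arrays of a line.

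Called intervals that lie next to each other were then examined. Among 1456 intervals with a tested feature there were 515 neighbouring pairs with a gap of at most 100000 bases, 267 of them overlapping. Both intervals were called in the same direction in 15 pairs and in opposite directions in 1, and 1 of the 2 was called in 59 pairs. Differences of neighbours had a Pearson r of 0.42 for overlapping pairs and 0.21 for the 248 pairs that did not overlap, as a description across pairs on the same arrays. Overlapping intervals can share a transcript or a probe target, so these pairs are not independent measurements. Of the 108 called features, 34 lay in 14 loci that held more than 1.

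Runs of at least 3 neighbouring intervals called in 1 direction numbered 4. The runs from 139795171 and from 175654606, both on chromosome 1, reached 3 intervals only through features that neither array of 1 line detected. The changes of those features are bounds, and in the run from 139795171 the bounds were 1.94-fold and 1.93-fold, below the 2-fold of a call. The count of 4 therefore depends on signals below background. The run on chromosome 1 from 138570107 to 138632310 was lower in GO2 cells, with F features only. The F feature of chr1:138579972-138587381 was its brightest change, from 1.85 and 1.79 in ID8G cells to 0.43 and 0.33 in GO2 cells (difference -1.44, SE 0.06). The F features of chr1:138570107-138632310 and chr1:138592780-138622719 differed by -1.86 and -1.46. The feature of an overlapping F interval, chr1:138567345-138578139, differed by -0.17 (limma adjusted p = 0.635) and its GO2 arrays enclosed its ID8G arrays.

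The second run, on chromosome 1 from 139795171 to 139857204, was also lower and also on the F strand, with 3 short intervals of at most 1136 bases. The feature of chr1:139822286-139822985 was measured on all 4 arrays and differed by -2.17. Those of chr1:139795171-139796306 and chr1:139856545-139857204 were not well above background in GO2 cells, which bounds their decreases at 1.94-fold or more and 1.93-fold or more. A feature on the R strand of chr1:139713316-139913366, which spans the run, differed by 0.04 (adjusted p = 0.697 in limma). The third run was the higher stretch on chromosome 1 described above, with 5 called R features in 2 loci from 175654606 to 175717250. Of these, 4 were measured on all 4 arrays and differed by 2.02 to 2.45, and that of chr1:175660642-175671878 was at least 2.32-fold higher. In that span 2 F features, in chr1:175654606-175672031 and chr1:175705225-175717250, were not well above background on any array, nor were 2 further R features.

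The last run, on chromosome 5 from 22801058 to 22939737, was higher on the R strand. The features of chr5:22887983-22939658 and chr5:22890322-22939119 rose from 0.31 and 0.23 to 1.41 and 1.28, and from 0.36 and 0.40 to 1.63 and 1.30, with differences of 1.08 each. Another R feature in the span, of chr5:22928221-22939127, stood at 0.34 and 0.22 in ID8G cells and at 0.68 and 0.62 in GO2 cells, a difference of 0.37 (SE 0.07, limma adjusted p = 0.0207) that missed the fold. In the longest interval the F feature differed by -0.01, as given above. In each of the 4 runs the calls were thus on 1 strand.

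**Figure D4:**
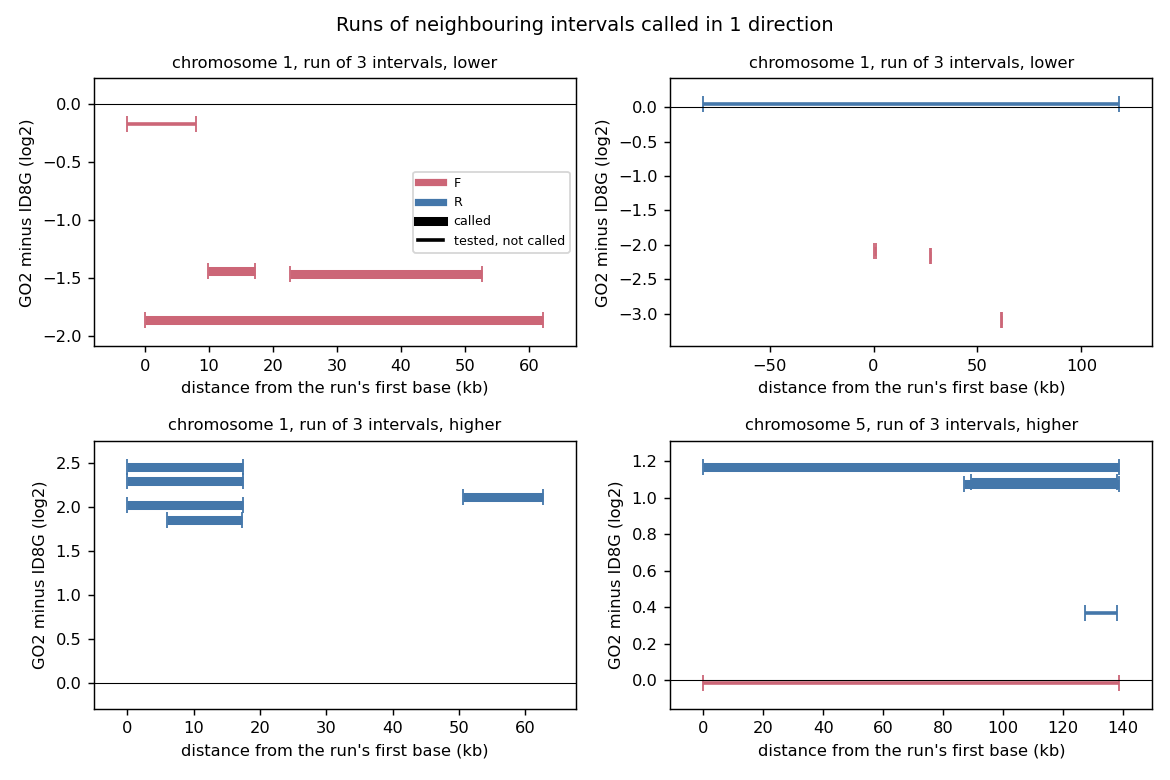
Difference of GO2 minus ID8G (log2, y axis) of tested lincRNA features in 4 runs of neighbouring intervals, against distance from the first base of the run (kb, x axis), with each bar spanning its interval, red for F, blue for R, thick for called and thin for tested but not called. The called bars of a run share 1 strand. Called bars measured on all 4 arrays lie from -1.86 to -1.44, at -2.17, from 2.02 to 2.45 and from 1.08 to 1.17. The other called bars, 2 in the second panel and 1 in the third, show signals below background in 1 line. Their bounds are 1.94-fold, 1.93-fold and 2.32-fold. Thin bars lie at -0.17 in the first panel, at 0.04 in the second and at -0.01 and 0.37 in the last.

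Chromosomes differed in their median. Each of the 20 chromosomes had at least 44 tested lincRNA features, and 18 of the medians were below 0. Chromosome 5 had the highest, at 0.12 over 116 features, with array pairs giving 0.08 to 0.13. It was 0.06 without ID8G replicate 1, and 0.06 over features detected on all 4 arrays, where chromosome X stood above it with 0.08. Above 0 were 61.2% of the chromosome 5 features, against 44.8% of all lincRNA features tested. Chromosome 5 also had the most higher calls, 12 in 8 loci, beside 3 lower ones. Of its 1182 tested features that matched a RefSeq gene symbol, 64 were higher and 27 lower. Chromosome X had the next highest median, 0.08 over 59 features. It was 0.04 without ID8G replicate 2 and 0.12 without GO2 replicate 1. Chromosome 18 had the lowest, at -0.17 over 58 features, with array pairs giving -0.20 to -0.12, and 1 higher and 4 lower calls. Each of these calls was of a feature that neither array of 1 line detected. Of the 488 tested chromosome 18 features that matched a RefSeq gene symbol, 33 were higher and 19 lower. No test was made over features of a chromosome.

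Chromosome 1 held the most calls, with 8 higher in 5 loci and 14 lower in 7 loci among 136 tested features, and 3 of the 4 runs lay on it. Of these runs, those from 139795171 and from 175654606 needed features with only a bound to reach 3 intervals. Chromosome 1 also had the most tested lincRNA features. Of its 1153 tested features that matched a RefSeq gene symbol, 68 were higher and 50 lower. Under the other settings the median of chromosome 5 was positive, except when dim features were not filtered out (-0.04), and that of chromosome X likewise (-0.04). The median of chromosome 18 was negative under every setting, between -0.20 and -0.07.

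The chromosome medians of lincRNA regions were set beside those of features that matched a RefSeq gene symbol (32994 features, 58.3% of the array). On chromosome 5 the median of the gene features was also positive, at 0.08, and on chromosome 18 also negative, at -0.10. On chromosome 19 the signs were opposite, with -0.11 for lincRNA regions and 0.09 for gene features, and on chromosome X they were 0.08 and -0.05. Gene features had their highest median on chromosome 4 (0.13) and their lowest on chromosome 8 (-0.17), where lincRNA regions stood at -0.04 and -0.04. Across the 20 chromosomes the medians had a Pearson r of 0.19 and a Spearman rho of 0.09, as a description over medians from the same arrays.

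**Figure D5:**
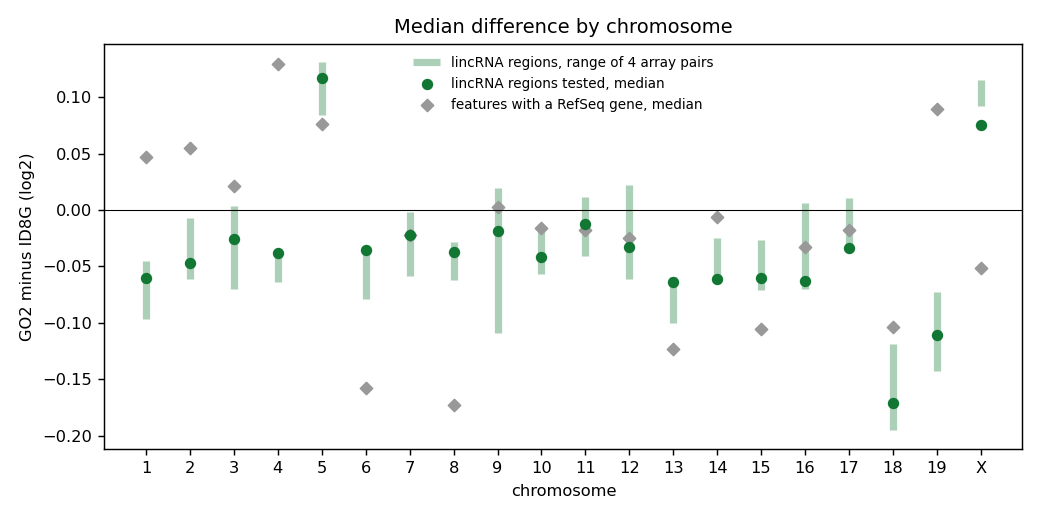
Median difference of GO2 minus ID8G (log2, y axis) by chromosome (x axis) for tested lincRNA features (green points, with the range over the 4 pairs of a GO2 and an ID8G array as bars) and for tested features with a RefSeq gene (grey diamonds). LincRNA medians run from -0.17 on chromosome 18 to 0.12 on chromosome 5.

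Long noncoding RNAs that the array names by gene gave a comparison. Of 35 such genes on the list, 26 had a named feature and 19 were tested, of which 2 were higher and 0 lower in GO2 cells by limma, with a median over their features of -0.06. Dnm3os, the noncoding host transcript of the microRNAs miR-199a and miR-214, stood at -5.39 and -4.85 on the ID8G arrays, neither well above background, and at -0.50 and -0.63 on the GO2 arrays, at least 8.64-fold higher (adjusted p = 0.000633). Peg13, an imprinted noncoding RNA expressed from the paternal allele, rose from -1.66 and -1.58 to -0.36 and -0.34 (difference 1.27, SE 0.06, adjusted p = 0.000637).

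The other 17 tested genes of the list were not called, and 7 genes with a feature were not tested. Mir22hg, the host transcript of miR-22, differed by 0.98 (SE 0.05) and missed the fold narrowly. Both features of Neat1, the scaffold RNA of nuclear paraspeckles, missed the fold, with differences of -0.40 and -0.50. Xist, the RNA that coats the inactive X chromosome, differed by -0.04 (adjusted p = 0.613). The imprinted transcript Airn differed by -0.37, and the 4 tested features of Kcnq1ot1, another imprinted antisense transcript, by -0.19 to -0.04. The small nucleolar RNA host genes Snhg1, Snhg3, Snhg5, Snhg6 and Snhg8 differed by -0.01 to 0.09, and Snhg12 by 0.42 (SE 0.06).

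Markers of other cell types were read on the same arrays. Of 10 markers of ovarian surface epithelium and mesothelium 9 were tested, with a median difference of -0.24. Krt7 was not well above background on any array. The keratins Krt8 and Krt18 stood between 6.21 and 8.12 on the 4 arrays. Krt19 was called lower in GO2 cells (difference -1.65, SE 0.05) and Upk3b, a uroplakin of mesothelium, was called higher (1.08, SE 0.05). Krt8 (-0.55), Krt18 (-0.81) and Msln (-0.82), the surface protein mesothelin, missed the fold with limma adjusted p of 0.00438, 0.00162 and 0.00176. The leukocyte marker Ptprc (CD45), the endothelial markers Cdh5, Kdr and Tek, and the adipocyte markers Adipoq and Plin1 were not well above background on any array. Of the leukocyte and endothelial markers, Cd68, Cd3e and Pecam1 were tested and 0 were called. Their tested features were well above background on all 4 arrays. For Cd3e, 1 feature stood at 1.08 and 1.09 in ID8G cells and at 1.37 and 1.17 in GO2 cells, and the other between -3.16 and -2.75. The tested Cd68 feature stood between -1.41 and -1.08, and Pecam1 between -3.34 and -3.14. Fabp4, a fatty acid carrier of adipocytes and macrophages, was well above background in ID8G cells only, and both of its features were called lower (at least 6.28-fold and 1.79-fold). The part of any other cell type in the differences of lincRNA regions was not tested.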

How the data were processed

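Total RNA of ID8G and GO2 cells was measured on 4 single-color Agilent arrays (Cy3), 2 per line. The deposited scanner files hold processed intensities per spot, not log-transformed, which the authors' Feature Extraction 11.5.1.1 software corrected for background, and the deposited value table holds log2 values of the same arrays. Outlier spots were left out, log2 intensities were averaged per feature, and each array's 75th percentile over features that are not controls was subtracted. Differences were fitted with limma 3.58.1 in R 4.3.3, with Benjamini-Hochberg adjustment over all features tested. The F minus R value was fitted in the same way over intervals. Among the tested lincRNA features, 2 lacked 1 array as an outlier, and neither was called. The number of arrays limits the precision, and an exact two-sided permutation test of 2 against 2 arrays cannot go below p = 0.333. A feature dim on a line's arrays was given a bound, in which each array of that line counts at its own signal or its lowest signal well above background, whichever is higher.

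Named were the 10 largest increases and decreases detected on all 4 arrays, the 5 largest bounds each way, the called strand differences (up to 5 each way by rule, and the others for completeness), runs of 3 or more neighbours, and listed noncoding RNA genes that were called. The brightest, the tenfold-printed and the disagreeing features, and other single features, were chosen after their values were seen. The members and lists were chosen with earlier results of these data known. The fits were tested on simulated data. Alternatives covered background correction, scaling, filter, floor, variance model, pairing, threshold and each array left out.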

Additional observations from a re-analysis of the deposited data

How the results depend on the processing

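Of 682 values of named features and intervals under the alternatives, 572 kept direction and call, 108 kept direction only and 2 reversed. The reversed ones were the F minus R change of chr1:92546371-92551596, which was -0.13 with dim signals raised to the detection limit, and that of chr2:167388900-167402475, which was 0.058 with features detected on all 4 arrays; the second then rests on 1 R feature in place of 3, and the cause of the first was not tested. Counts of higher and lower regions and of strand differences were 22, 14 and 2 with normexp background correction (on median spot signals), 24, 21 and 4 with features detected on all 4 arrays, and 206, 276 and 16 with no minimum fold. They were 0, 0 and 0 with a Welch t-test adjusted by Benjamini-Hochberg, which at an unadjusted p below 0.05 gave 124, 164 and 14. The paper names this t-test for comparing 2 groups in general and gives no test for the arrays. A floor gave 37 higher regions, no filter on dim features gave 0 strand differences (132 at an unadjusted p below 0.05), an adjusted p below 0.01 gave 3, and at least 1 strand tested gave 14. Leaving out 1 array gave 57 to 94 higher, 46 to 104 lower and 2 to 16 strand differences, and medians from -0.0516 to -0.0106. The median difference was -0.00247 with normexp, -0.0640 with median centering and -0.0569 with no filter. Regions detected numbered 2470 by the looser significance mark of Feature Extraction in place of 1528, and 1536 to 1580 with 1 array left out. With the replicate number as a block, 54 regions were higher, 49 lower and 11 strand differences were called. The samples share only a number: replicate deviations of the lines correlated at 0.03 over 28344 features. The slide could not be a block, since there was 1 slide. Fewer or more features enter some of these fits by construction, and the cause was not tested otherwise. Dim signals limit the folds of 63 of the 108 calls to bounds.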
